A study of Mus musculus with 9 samples.

Results

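AP-1, EGR and NR4A early genes are transcription factor genes, most of which B cells switch on soon after a signal reaches them, before new protein has to be made. The 10 genes described here were taken by name from the reference with human sequences and are the AP-1 genes Fos, Fosb, Fosl2, Jun, Junb and Jund, the zinc finger genes Egr1, Egr2 and Egr3, and the orphan nuclear receptor gene Nr4a1. They are 10 of the 22139 genes of that reference, and all 10 were among the 11163 genes that passed the filter on low counts.

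The samples were B cells from spleens of 9 C57/BL6NTac mice, 3 per group, enriched with a pan B cell kit that removes other cells, and 1 RNA-sequencing library was made per mouse. Eµ-MTCP1 mice (Z2641, Z2606 and Z2551) carried a human MTCP1 cDNA behind the immunoglobulin heavy chain promoter and Eµ enhancer, which direct it to B cells, and came from the single founder line Z36, in which the transgene lies in an intron of Fam168a. Eµ-TCL1 mice (C1594, B4437 and B4376) carried human TCL1 under the same kind of B cell enhancer and are the established mouse model of chronic lymphocytic leukemia. Wildtype mice (Z2785, Z2755 and Z2754) were littermates without a transgene. The study's account of sample preparation for flow cytometry, which names the same kit, has transgenic spleens taken once mice had reached set criteria for euthanasia. Neither age, sex nor disease burden is given for any single mouse, so that effects of a transgene, of disease and of age cannot be told apart.

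FOS and JUN family proteins pair through leucine zippers into AP-1, EGR proteins bind GC-rich sites through zinc fingers, and NR4A1 (also called NUR77) binds DNA as a nuclear receptor without a known natural ligand. In B cells, antigen receptor signaling through ERK, calcium and SRF induces genes such as Fos, Egr1 and Nr4a1 within minutes, and their transcripts are short-lived. Jund, by contrast, is known as a largely constitutive AP-1 gene. NR4A1 is widely used as a readout of recent antigen receptor signaling, and JUNB and JUND are AP-1 subunits known to restrain proliferation in some settings. Dissociating and isolating cells is also known to induce AP-1 genes.

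Promoters of 4 members are printed below, since these genes followed different courses across the mice: Fos and Egr2 were highest in the same 3 transgenic mice, while Junb and Nr4a1 were highest or near the highest in wildtype. RefSeq (GRCm38.p6) gave a promoter for 8 of the 10 members. Each run is the 250 bases before the start, 5′ to 3′ on the gene's strand. Capitals mark matches, on either strand, to the CRE half-site TGACG bound by CREB and ATF factors, the EGR site GCGNGGGCG and the SRF-bound CArG box.
Fos, chr12:85473640-85473889, plus strand: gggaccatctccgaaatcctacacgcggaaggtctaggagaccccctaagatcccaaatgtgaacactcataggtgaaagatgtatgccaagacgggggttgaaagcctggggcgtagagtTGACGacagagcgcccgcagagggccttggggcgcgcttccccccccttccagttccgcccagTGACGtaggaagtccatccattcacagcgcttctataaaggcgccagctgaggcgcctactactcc
Egr2, chr10:67537619-67537868, plus strand: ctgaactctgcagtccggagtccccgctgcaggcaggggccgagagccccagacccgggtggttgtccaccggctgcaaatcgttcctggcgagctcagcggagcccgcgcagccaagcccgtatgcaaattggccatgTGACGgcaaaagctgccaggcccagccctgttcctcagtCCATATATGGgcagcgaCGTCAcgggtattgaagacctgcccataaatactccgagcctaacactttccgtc
Junb, chr8:84978749-84978998, minus strand: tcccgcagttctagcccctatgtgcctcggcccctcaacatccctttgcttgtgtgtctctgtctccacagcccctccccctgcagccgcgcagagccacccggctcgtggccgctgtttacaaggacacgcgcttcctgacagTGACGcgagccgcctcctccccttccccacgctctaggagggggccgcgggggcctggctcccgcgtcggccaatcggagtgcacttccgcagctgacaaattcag
Nr4a1, chr15:101266596-101266845, plus strand: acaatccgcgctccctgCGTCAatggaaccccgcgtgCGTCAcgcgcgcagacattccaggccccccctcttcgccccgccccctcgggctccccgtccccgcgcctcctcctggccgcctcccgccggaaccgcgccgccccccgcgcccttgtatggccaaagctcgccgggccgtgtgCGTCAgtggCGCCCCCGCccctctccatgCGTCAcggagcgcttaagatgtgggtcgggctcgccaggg

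The CRE half-site was found in 5 of the 8 members (Egr2, Fos, Fosb, Junb and Nr4a1) and in 19.8% of the 27025 mouse genes of the table, counting a gene where any of its windows matched. Egr2 has 5 of the members' 12 windows, and 7 of the 12 held a half-site, beside 17.8% of the 32851 windows of all genes. Nr4a1 held 4 half-sites, Fos held 2 and Junb held 1. The Egr2 start shown above, inside the annotated gene, carried 2 half-sites and a CArG box 72 to 63 bases before the start. Within the 250 bases searched, a CArG box matched exactly in Egr2 alone among the 8 members, in 4 of its 5 windows, and in 1.62% of all genes. Sites farther from the start and inexact matches were not searched for, so a gene without a match may still carry the site elsewhere. The EGR site was found in Fosb, Fosl2 and Nr4a1 and in 5.33% of all genes. It can overlap the GC box GGGCGG, which was not put in capitals. The full CRE TGACGTCA (1.77% of all genes), which contains a half-site, the AP-1 site TGANTCA (7.82%) and the NR4A site AAAGGTCA (1.55%) matched none of the members' windows. The RefSeq start of Jund lies 1210 bases before the start of the annotated gene, and its window held none of these letters. The windows printed here contain no annotated exon.

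Each library held 6447542 to 8033303 reads assigned to genes, and 3 reads, the floor used for a count of 0, corresponded to 0.326 to 0.495 CPM, the count scaled to a common library size. Reads carried no molecular identifiers, so floors cover counting error only. The human MTCP1 transgene had 1744 to 4833 reads in Eµ-MTCP1 and at most 3 elsewhere, and human TCL1A had 26439 to 47437 in Eµ-TCL1 and at most 18 elsewhere. The summed CPM of 6 B cell markers was 6986 to 10624 in all libraries, and Cd5, a marker of leukemic B1a cells, was 0.743 to 4.83 CPM in wildtype and 23.9 to 83.4 CPM in the transgenic mice. The sum of 7 myeloid markers, mostly Lyz2 but S100a9 in Z2641, was 801 to 1686 CPM in wildtype, 146 to 1385 CPM in Eµ-TCL1 and 519 to 1126 CPM in Eµ-MTCP1. The sum of 6 T cell markers was 2.497 to 5.44, 8.40 to 49.4 and 2.84 to 23.1 CPM in the same order. It was mostly Cd3g in C1594, B4437 and Z2641 (7.42, 8.23 and 22.5 CPM). B4376 had 20.2 CPM of Cd3g beside 7.05 of Cd3e and 8.71 of Cd3d. Cd4 and Cd8a were at or near 0 in wildtype and at most 0.553 and 2.49 CPM in the transgenic mice. The sum of 2 plasma cell markers, mostly Jchain, ranged from 34.3 to 2650 CPM and was highest in Z2606. The 10 heat shock genes, also known to respond to handling, summed to 4500 to 4820 CPM in wildtype, 7465 to 10804 CPM in Eµ-TCL1 and 3857 to 4935 CPM in Eµ-MTCP1. Most of each sum was Hspa8. The wildtype library Z2755 bears another lane number in the table headers than the other 8. The part of these differences in the results below was not tested, and a lower level in bulk RNA cannot tell fewer cells of a type from less RNA per cell.

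The first comparison asks whether the early genes of B cells from transgenic mice differ from those of wildtype B cells. With both transgenic groups pooled, 2 of 10 members, Junb and Jund, were lower than in wildtype and none was higher (edgeR quasi-likelihood F test, Benjamini-Hochberg adjusted p under 0.05 over 11163 genes). Of all genes tested, 13.1% were called in this comparison. Without the adjustment 6 of 10 members had a p under 0.05, where 29.1% of all genes did, and DESeq2 called 4 (Junb, Jund, Egr2 and Nr4a1), beside 18.9% of all genes. Junb alone did not overlap between the groups in the lower direction, where 9.15% of all genes did not, and no member did so in the higher direction, where 9.44% of all genes did. The members' median log2 fold change was 0.15, beside -0.02 over all genes, with 6 members above 0 and 4 below. The members did not move in one direction.

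**Figure D1:**
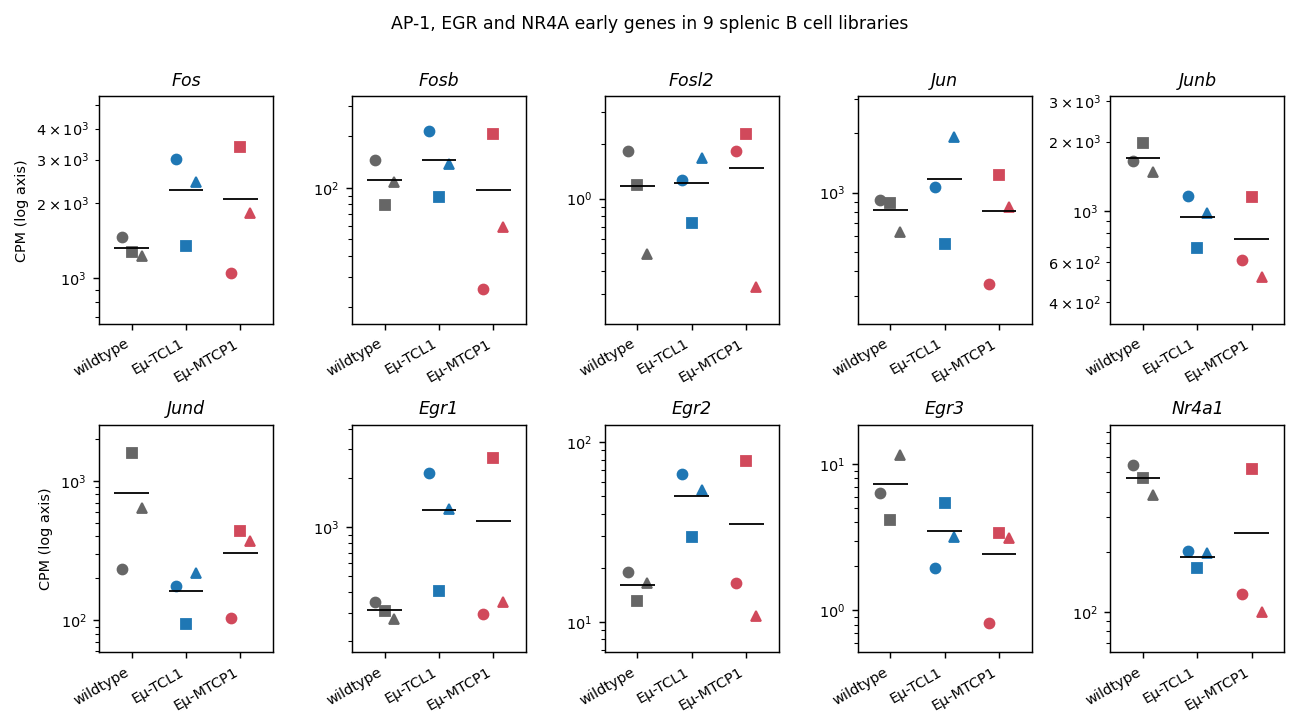
CPM of each early gene in each of the 9 libraries, on a log axis whose range differs by gene. Grey, blue and red points are wildtype, Eµ-TCL1 and Eµ-MTCP1 mice, circles, squares and triangles are replicates 1, 2 and 3 of a group (wildtype Z2785, Z2755, Z2754; Eµ-TCL1 C1594, B4437, B4376; Eµ-MTCP1 Z2641, Z2606, Z2551), and lines are group means. Junb is lower in all 6 transgenic mice than in any wildtype mouse, while Egr1 is high in C1594, B4376 and Z2606 and near wildtype in the other 3 transgenic mice.

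Levels of different members were compared on the coding reference, as TPM, which scales reads by transcript length and library total. In wildtype B cells Junb had the highest mean, 1846 ± 417 TPM (SD, n = 3), followed by Jund with 1611 ± 1632, Jun with 977 ± 169 and Fos with 847 ± 60.8 TPM. Junb and Jund did not differ beyond their spread, nor did Jun and Fos. The place of Jund rested on Z2755, which had 3461 TPM beside 380 in Z2785 and 991 in Z2754, and without it the mean was 686 TPM, below Jun (883) and Fos (819). A second tier held Nr4a1 (172 ± 24.0), Egr1 (129 ± 12.1) and Fosb (126 ± 20.4 TPM), of which Egr1 and Fosb did not differ beyond their spread. Egr2 (9.10 ± 4.31), Egr3 (6.405 ± 4.23) and Fosl2 (0.988 ± 0.450 TPM) were low, and Egr2 and Egr3 did not differ beyond their spread. In Eµ-TCL1, Jun (1291 ± 755) and Fos (1222 ± 429 TPM) had the highest means and Junb came after them with 921 ± 185 TPM. In Eµ-MTCP1 the order was Fos (1027 ± 574), Jun (794 ± 432) and Junb (660 ± 292 TPM), all within 1 SD of their neighbour. The order depended on the reference. On the standard reference, whose transcripts include UTRs, wildtype Jun had 463 ± 129 TPM and Fos 754 ± 84.5, apart by more than their SDs. There Jun came after Junb in Eµ-TCL1 (625 ± 385 and 654 ± 133 TPM, Fos 1110.0 ± 393) and had the lowest mean of Fos (877 ± 507), Junb (445 ± 201), Jund (366 ± 202) and Jun (350.2 ± 205 TPM) in Eµ-MTCP1.

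Junb, the AP-1 subunit gene on chr8:84974484-84978718 (ENSMUSG00000052837, minus strand), was measured at 1640, 1967 and 1478 CPM in wildtype mice Z2785, Z2755 and Z2754. In Eµ-TCL1 it had 1157, 692 and 984 CPM in C1594, B4437 and B4376, and in Eµ-MTCP1 611, 1149 and 516 CPM in Z2641, Z2606 and Z2551. All 6 transgenic mice lay below all 3 wildtype mice. The fitted log2 fold change of both transgenic groups against wildtype was -1.002 ± 0.27 (SE, edgeR adjusted p = 0.0343). Taken singly, Eµ-MTCP1 differed by -1.16 ± 0.32 (adjusted p = 0.05002, which did not fall under the threshold) and Eµ-TCL1 by -0.84 ± 0.32 on the log2 scale (edgeR adjusted p = 0.134). These comparisons share the wildtype mice. Without Z2755, the library with the other lane number, the pooled value was -0.91 ± 0.31 (edgeR adjusted p = 0.122). The pooled call was lost in 6 of the 9 fits that left out 1 library (Z2785, Z2755, Z2754, B4437, B4376 or Z2551), with values from -1.25 to -0.89. Without Z2606 Junb was called lower in all 3 comparisons, with -1.62 ± 0.28 for Eµ-MTCP1 (edgeR adjusted p = 0.00702), -0.88 ± 0.23 for Eµ-TCL1 (adjusted p = 0.0464) and -1.25 ± 0.21 pooled (adjusted p = 0.00404), where 8.23%, 9.17% and 13% of all genes were called. Without B4437 it was called lower in Eµ-MTCP1, where 8.68% were. Z2606 is no Eµ-TCL1 mouse and B4437 no Eµ-MTCP1 mouse. Each bears on the other group's comparison through the spread, which the fit estimates over all groups. Prdx2 overlaps the end of Junb on the other strand and had reads in every library.

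Jund, the AP-1 subunit gene on chr8:70698949-70700616 (ENSMUSG00000071076, plus strand), varied most among wildtype mice, with 234 CPM in Z2785, 1582 in Z2755 and 641 in Z2754. It had 176, 93.9 and 217 CPM in the Eµ-TCL1 mice and 103, 434 and 371 CPM in the Eµ-MTCP1 mice. All Eµ-TCL1 mice lay below the lowest wildtype mouse, while Z2606 and Z2551 overlapped with wildtype. The pooled log2 fold change was -1.89 ± 0.55 (SE, edgeR adjusted p = 0.0471). For Eµ-TCL1 it was -2.34 ± 0.69 (adjusted p = 0.0618) and for Eµ-MTCP1 -1.44 ± 0.67 (edgeR adjusted p = 0.214). Without Z2755 the pooled value was -1.02 ± 0.52 (edgeR adjusted p = 0.284), that for Eµ-TCL1 -1.47 ± 0.61 (adjusted p = 0.220) and that for Eµ-MTCP1 -0.57 ± 0.61 (adjusted p = 0.639). The pooled call was also lost without Z2754, C1594, B4437, B4376 or Z2551, in 6 of 9 such fits in all. For Eµ-TCL1, Jund was called lower without Z2785, where 6.6% of all genes were called, or Z2641, where 10.8% were. Jund also depended on how reads were counted, since the deposited gene counts held 6.39 to 10.3% of the Jund reads that Salmon assigned on the standard reference. The antisense gene Gm11175 overlaps Jund on the opposite strand and had 0 counts in all 9 libraries in that table. The ratio of mean transgenic to mean wildtype Jund, scaled to the reads of each table, was 0.238 on the coding reference, 0.248 on the standard reference and 0.268 in the gene counts. On the standard reference the pooled Jund value of -1.79 ± 0.53 was not called (edgeR adjusted p = 0.0501).

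Nr4a1, the nuclear receptor gene on chr15:101254269-101274795 (ENSMUSG00000023034), had 542, 471 and 387 CPM in wildtype. In Eµ-TCL1 it lay in a narrow band of 203, 167 and 198 CPM, below every wildtype mouse. In Eµ-MTCP1 it had 123 CPM in Z2641, 522 in Z2606 and 100.3 in Z2551, so that Z2606 was at the wildtype level and the other 2 were the lowest of the 9. The pooled log2 fold change was -1.10 ± 0.43 (SE, edgeR adjusted p = 0.121), and single values were -1.30 ± 0.52 for Eµ-TCL1 (adjusted p = 0.154) and -0.91 ± 0.52 for Eµ-MTCP1 (edgeR adjusted p = 0.305). Without Z2606 the pooled value was -1.71 ± 0.17 (edgeR adjusted p = 0.000219), that for Eµ-TCL1 -1.33 ± 0.19 (adjusted p = 0.00242) and that for Eµ-MTCP1 -2.09 ± 0.23 (adjusted p = 0.000841). In that fit 9.17% of all genes were called for Eµ-TCL1, 8.23% for Eµ-MTCP1 and 13% pooled. For Eµ-TCL1, to which Z2606 does not belong, the value hardly moved while the SE fell from 0.52 to 0.19. The edgeR call of Nr4a1 thus turned on Z2606, while DESeq2 called Nr4a1 pooled and in Eµ-TCL1 with all 9 mice.

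**Figure D2:**
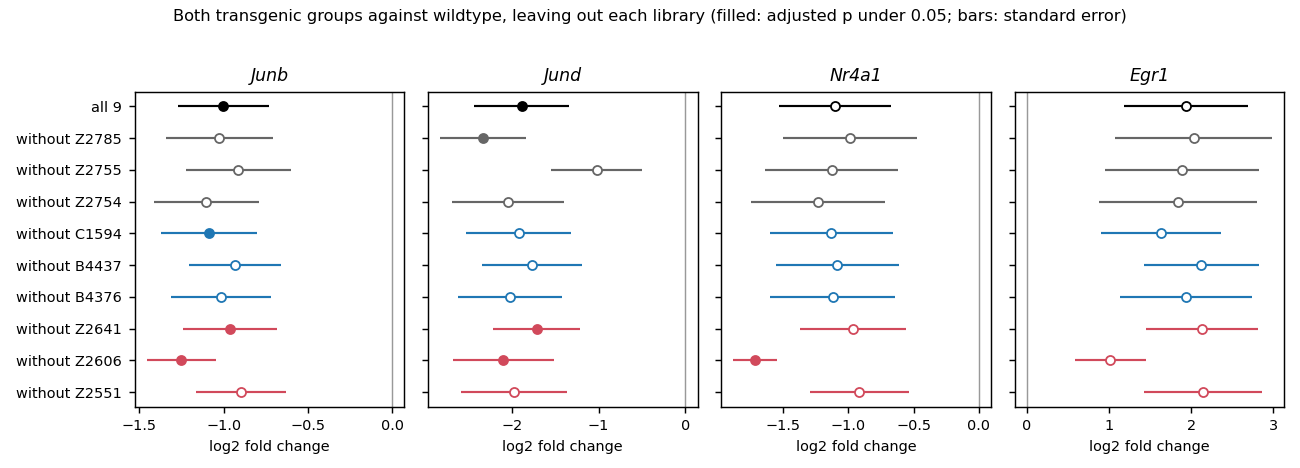
Fitted log2 fold change of both transgenic groups against wildtype for 4 members, with all 9 libraries (top) and leaving out each library in turn. Points are estimates, bars are standard errors, filled points have an edgeR adjusted p under 0.05, and grey, blue and red mark a left-out wildtype, Eµ-TCL1 or Eµ-MTCP1 mouse. Nr4a1 is called only without Z2606, Jund moves to -1.02 without Z2755, and all values stay on one side of 0.

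Egr1, a zinc finger factor gene induced by ERK signaling (ENSMUSG00000038418), had 351, 305 and 274 CPM in wildtype. It reached 2155 CPM in C1594 and 1286 in B4376 but 404 in B4437, all Eµ-TCL1. In Eµ-MTCP1 it reached 2643 CPM in Z2606, the highest of the 9 libraries, while Z2641 (295) and Z2551 (348 CPM) lay among the wildtype mice. The highest and lowest Eµ-MTCP1 mouse differed 8.96-fold, and the highest and lowest wildtype mouse 1.28-fold. The pooled log2 fold change of 1.93 ± 0.75 did not pass the test (SE, edgeR adjusted p = 0.120). It was 2.05 ± 0.82 for Eµ-TCL1 (adjusted p = 0.153) and 1.82 ± 0.81 for Eµ-MTCP1 (edgeR adjusted p = 0.196). Without Z2606 the pooled value was 1.01 ± 0.43 (edgeR adjusted p = 0.153) and the Eµ-MTCP1 value 0.02 ± 0.52 (adjusted p = 0.985). The Eµ-TCL1 value of 2.01 ± 0.48 was called there (edgeR adjusted p = 0.0287), beside 9.17% of all genes. Z2606 is no Eµ-TCL1 mouse. That value hardly moved while its SE fell from 0.82, since the fit estimates the spread over all groups.

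Egr2, the zinc finger factor gene on chr10:67535475-67542188 (ENSMUSG00000037868), which also restrains lymphocyte activation, had 18.9, 13.0 and 16.5 CPM in wildtype. The Eµ-TCL1 mice had 66.4, 29.6 and 54.2 CPM, all above wildtype. The Eµ-MTCP1 mice had 16.5 CPM in Z2641, 78.1 in Z2606 and 10.8 in Z2551, on both sides of wildtype. The pooled log2 fold change was 1.38 ± 0.57 (SE, edgeR adjusted p = 0.139), with 1.63 ± 0.63 for Eµ-TCL1 (adjusted p = 0.139) and 1.13 ± 0.63 for Eµ-MTCP1 (edgeR adjusted p = 0.292). Without Z2606 the pooled value was 0.66 ± 0.30 (edgeR adjusted p = 0.178) and that for Eµ-MTCP1 turned to -0.27 ± 0.37 (adjusted p = 0.687). There Egr2 was called higher in Eµ-TCL1 with 1.597 ± 0.33 (edgeR adjusted p = 0.0156), beside 9.17% of all genes. This value too hardly moved, while its SE fell from 0.63. In a fit of Eµ-TCL1 and wildtype alone, which called 10.8% of all genes, Egr2 was called higher in Eµ-TCL1 with 1.599 ± 0.32 (edgeR adjusted p = 0.0153), as were Egr1 with 2.01 ± 0.51 (adjusted p = 0.0390), and Nr4a1 (-1.33 ± 0.19, adjusted p = 0.00348) and Jund (-2.37 ± 0.63, adjusted p = 0.0470) were called lower.

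Egr3, the third zinc finger gene (ENSMUSG00000033730), had few reads, from 5 in Z2641 to 94 in Z2754. Its levels were 6.35, 4.13 and 11.6 CPM in wildtype, 1.96, 5.40 and 3.18 in Eµ-TCL1 and 0.826, 3.41 and 3.12 in Eµ-MTCP1. All Eµ-MTCP1 mice lay below all wildtype mice, and B4437 of Eµ-TCL1 overlapped with them. The log2 fold change was -1.58 ± 0.64 for Eµ-MTCP1 (SE, edgeR adjusted p = 0.162) and -1.06 ± 0.63 for Eµ-TCL1 (adjusted p = 0.330). The reference with human sequences mostly holds coding sequence, and 12.7 to 37.3% of the Egr3 reads on the standard reference were kept in it. On the standard reference Egr3 was called lower in Eµ-MTCP1 (edgeR adjusted p = 0.0432), where 9.66% of all genes were called, and in the pooled comparison (adjusted p = 0.0343), where 13.4% were. There a transcript with a retained intron took 0 to 100% of the Egr3 reads, depending on the library.

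**Figure D3:**
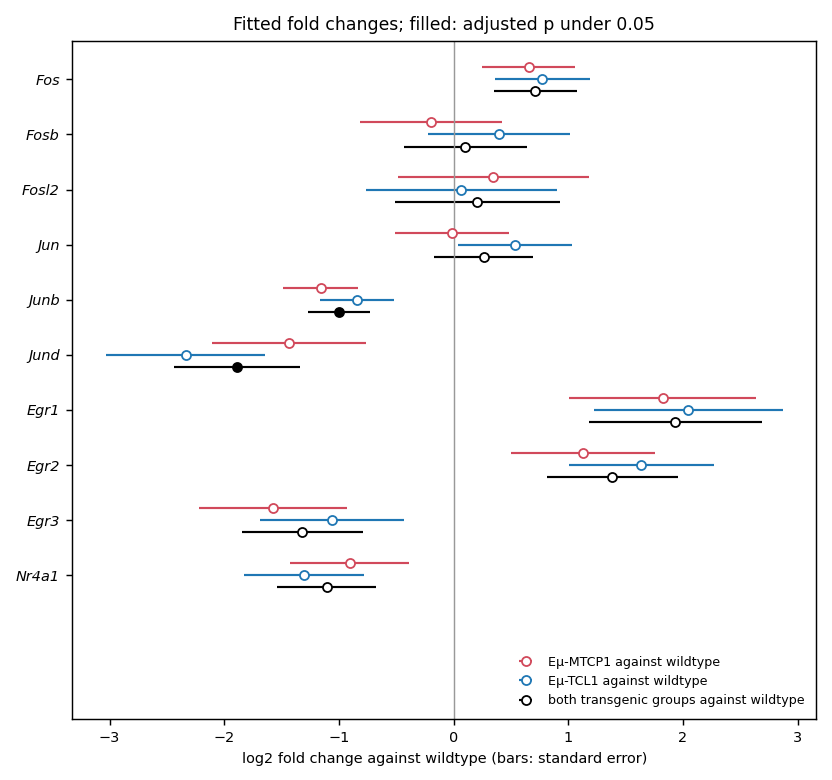
Fitted log2 fold changes of the 10 members against wildtype, with standard errors, for Eµ-MTCP1 (red), Eµ-TCL1 (blue) and both together (black). Filled points, which are Junb and Jund in the pooled comparison, have an edgeR adjusted p under 0.05.

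Fos, the AP-1 subunit gene on chr12:85473890-85477273 (ENSMUSG00000021250), had 1473, 1274 and 1231 CPM in wildtype. It had 3019, 1348 and 2436 CPM in the Eµ-TCL1 mice and 1048, 3370 and 1835 CPM in the Eµ-MTCP1 mice. The same 3 mice as for Egr1 were highest, Z2606, C1594 and B4376, and the groups overlapped. The pooled log2 fold change was 0.71 ± 0.36 (SE, edgeR adjusted p = 0.225) and 0.41 ± 0.29 without Z2606 (adjusted p = 0.369). The Eµ-MTCP1 value of Fos was 0.65 ± 0.41 (edgeR adjusted p = 0.349) and 0.085 ± 0.35 without Z2606 (adjusted p = 0.904). Fosb, a FOS family gene, had 145, 79.4 and 108 CPM in wildtype, 214, 87.8 and 137 in Eµ-TCL1 and 25.6, 206 and 58.7 in Eµ-MTCP1, an 8.05-fold span within Eµ-MTCP1. Its pooled log2 fold change was 0.10 ± 0.54 (SE, edgeR adjusted p = 0.923) and turned to -0.54 ± 0.35 without Z2606 (adjusted p = 0.332). Jun had 923, 889 and 630 CPM in wildtype, 1066, 547 and 1928 in Eµ-TCL1 and 344, 1229 and 844 in Eµ-MTCP1, with a pooled value of 0.26 ± 0.43 (edgeR adjusted p = 0.725). Jun encodes the partner of FOS in the classical AP-1 dimer. Fosl2, which encodes the FOS-like protein FRA2, had 2 to 16 reads per library, or 0.328 to 2.27 CPM. Only 3.13 to 16% of its reads on the standard reference were kept in the coding reference, whose longest Fosl2 entry has 981 bases against 6537. On the standard reference Fosl2 had 52 to 202 reads per library, and its log2 fold change was 0.31 ± 0.43 for Eµ-MTCP1 (SE, edgeR adjusted p = 0.696) and -0.028 ± 0.43 for Eµ-TCL1 (adjusted p = 0.976).

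The second comparison asks whether B cells of the 2 transgenic models differ in these genes. None of the 10 members was called between Eµ-TCL1 and Eµ-MTCP1 (edgeR quasi-likelihood F test), none had an unadjusted p under 0.05 and DESeq2 called none. Of all genes, edgeR called 0.0358% and DESeq2 0.639%, and 6.41% had an unadjusted p under 0.05. The values leave room for sizeable differences. For Egr1 the log2 difference of Eµ-TCL1 minus Eµ-MTCP1 was 0.23 with a 95% interval from -1.52 to 1.98, for Nr4a1 -0.40 (-1.54 to 0.75) and for Jund -0.90 (-2.37 to 0.57). The narrowest interval was that of Junb, 0.32 (-0.39 to 1.03), followed by Fos, 0.12 (-0.78 to 1.03). Without Z2606 the difference was 1.99 for Egr1 (edgeR adjusted p = 0.355) and 0.76 for Nr4a1 (adjusted p = 0.355).

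In the single comparisons with wildtype, edgeR called 0 of 10 members in Eµ-MTCP1, where 9.49% of all genes were called, and 0 of 10 in Eµ-TCL1, where 9.16% were. An unadjusted p under 0.05 was found for 3 members in Eµ-MTCP1 (Junb, Egr3 and Egr1) and for 5 in Eµ-TCL1 (Jund, Junb, Egr2, Egr1 and Nr4a1), beside 25.0% and 25.1% of all genes. DESeq2 called 1 member in Eµ-MTCP1 (Junb), beside 14.8% of all genes, and 4 in Eµ-TCL1 (Junb, Jund, Egr2 and Nr4a1), beside 15.2%. The members' median log2 fold change was -0.11 in Eµ-MTCP1 and 0.23 in Eµ-TCL1, beside -0.02 and -0.01 over all genes.

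The distance between mice of a group also varied, and was not tested. Highest and lowest wildtype mouse were 1.197- to 1.83-fold apart for Fos, Fosb, Jun, Junb, Egr1, Egr2 and Nr4a1, 2.82-fold for Egr3, 3.66-fold for Fosl2 and 6.77-fold for Jund. In Eµ-MTCP1 the span was 2.23-fold for Junb and 3.22- to 8.96-fold for the other 9. In Eµ-TCL1 it was 1.22-fold for Nr4a1 and 1.67- to 5.33-fold for the other 9. Eµ-MTCP1 mouse Z2606 was among the 3 highest libraries for 8 of the 10 members and the highest for 4 (Fos, Fosl2, Egr1 and Egr2). Eµ-MTCP1 mouse Z2641 was among the 2 lowest for 8 members. Z2641 and Z2551 were each the lowest for 4 members.

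**Figure D4:**
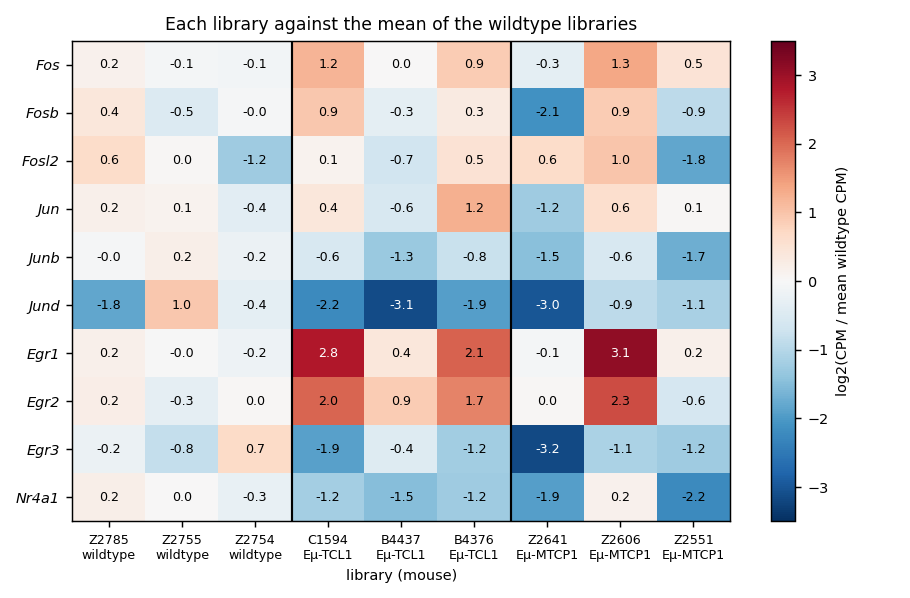
Log2 ratio of each library's CPM to the mean wildtype CPM for the 10 members, with libraries as columns in the order wildtype, Eµ-TCL1, Eµ-MTCP1. Red is above and blue below the wildtype mean. Egr1, Egr2 and Fos are red in C1594, B4376 and Z2606, while Junb is blue in all 6 transgenic columns.

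Over the 6 transgenic libraries, Pearson's r of log2 CPM for the 45 pairs of members ranged from -0.38 (Egr3 with Fosl2) to 0.99, with a median of 0.66. It was over 0.8 for 13 pairs and under 0 for 2, and low for most pairs with Egr3, such as 0.12 with Junb and 0.18 with Egr1. Among the highest it was 0.94 for Egr1 with Fos, 0.93 for Egr1 with Egr2, 0.96 for Egr1 with Junb and 0.99 for Egr2 with Junb. Over all 9 libraries the first 2 pairs stayed at 0.95 and 0.94, but r was 0.06 for Egr1 with Junb and 0.08 for Egr2 with Junb. The wildtype mice combined the 3 highest Junb levels with 274 to 351 CPM of Egr1. Nr4a1 and Junb were paired at 0.83 over 6 and 0.91 over 9 libraries. The points share library depth and the 2 transgenic groups, and the values are given as a description.

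The genes whose pattern over the 9 libraries was most like the mean of the members' standardized log2 CPM were Vamp2 (r = 0.94), Lrrc8c (0.93), Tm2d2 (0.92), Map1lc3a (0.92), Nbas (0.92), Abcc5 (0.92), Ppt1 (0.91), Ier5 (0.90), Xpo7 (0.90) and Rgcc (0.90), out of 9101 genes with a mean of at least 5 CPM. Ier5 is itself an early-response gene. Among the genes most like Egr1 alone were the early-response genes Ier2 (0.98) and Atf3 (0.96).

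Around the members, genes of the same families were tested. Among further EGR and NR4A genes and the NAB corepressors that bind EGR proteins, Nr4a2, Nr4a3, Nab1 and Nab2 were tested and called in the pooled comparison, where 13.1% of all genes were. Nr4a3 passed the filter on low counts through the wildtype mice alone and Nr4a2 would not have passed without them, so that these 2 could be tested only by being high in wildtype, and their calls are no support for a direction of the family. Nr4a2, an NR4A receptor gene, had 9.97, 13.9 and 13.1 CPM in wildtype and 1.40, 2.21 and 0.830 CPM in Eµ-TCL1. In Eµ-MTCP1 it had 1.28 CPM in Z2606 and 0 reads in Z2641 and Z2551, which allows up to 0.495 and 0.492 CPM. Its fitted pooled log2 fold change was -3.88 ± 0.71 (SE, edgeR adjusted p = 0.00554). Nr4a3, the third receptor gene of the family, had 6.95, 1.74 and 2.35 CPM in wildtype and 0.165 to 0.852 CPM in the transgenic mice, with -2.77 ± 0.65 (edgeR adjusted p = 0.0187). Nab1 fell with -1.52 ± 0.37 (adjusted p = 0.0222) and Nab2, itself an EGR target, rose with 0.86 ± 0.21 on the log2 scale (edgeR adjusted p = 0.0240). In the comparison of Eµ-MTCP1 with wildtype Nr4a2 and Nab1 were called lower (9.49% of all genes called), and in that of Eµ-TCL1 Nab2 was called higher (9.16%). Of 7 tested further AP-1 and bZIP genes edgeR called none in any comparison, with at most 1 at an unadjusted p under 0.05, and DESeq2 called none. Of all genes, edgeR called 9.49% in Eµ-MTCP1, 9.16% in Eµ-TCL1, 0.0358% between the models and 13.1% pooled. In the same order DESeq2 called 14.8%, 15.2%, 0.639% and 18.9%. An unadjusted p under 0.05 was found for 25.0%, 25.1%, 6.41% and 29.1%. Atf3, a stress-induced bZIP gene, had 443, 105 and 281 CPM in Eµ-TCL1 and 37.99, 325 and 54.0 in Eµ-MTCP1, beside 66.3, 45.0 and 59.2 in wildtype, with a pooled value of 1.79 ± 0.69 (edgeR adjusted p = 0.117).

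Of 30 further early-response genes, the pooled comparison called 4 lower and none higher, with a median log2 fold change of -0.51. This share is close to the 13.1% of all genes called. Bhlhe40, a repressor gene induced on activation, was 265, 222 and 223 CPM in wildtype and 17.4 to 50.8 CPM in the transgenic mice, with -3.09 ± 0.27 (SE, edgeR adjusted p = 7.45e-05). The growth arrest genes Gadd45g (-2.90 ± 0.54, adjusted p = 0.00604) and Gadd45a (-1.54 ± 0.31, adjusted p = 0.00954) and the antiproliferative gene Btg1 (-1.12 ± 0.24, adjusted p = 0.0131) fell on the log2 scale in the same edgeR fit. These 4 were also the ones called in Eµ-MTCP1, and 3 of them, without Btg1, were called in Eµ-TCL1. Without Z2606, 9 of the 30 were called in Eµ-MTCP1 and 11 in the pooled comparison, among them Cd69, Klf6 and Rgs1, where 8.23% and 13% of all genes were called. The 9 did not include Gadd45a and Gadd45g. In Eµ-MTCP1 the count fell to 1 (Bhlhe40) without Z2755 or Z2754 and to 2 without Z2785 or Z2551. Of all genes, 4.98% were called there without Z2755, 4.59% without Z2754, 6.88% without Z2785 and 5.22% without Z2551. In Eµ-TCL1 it fell to 1 (Bhlhe40) without Z2755, where 4.8% of all genes were called, or without C1594, where 5.73% were. Among 15 tested feedback inhibitors, edgeR called 4 lower and none higher in the pooled comparison, beside 13.1% of all genes: the ERK phosphatase genes Dusp2 (-2.14 ± 0.41, adjusted p = 0.00649) and Dusp6 (-0.91 ± 0.23, adjusted p = 0.0250) and the NF-κB inhibitor genes Tnfaip3 (-1.29 ± 0.30, adjusted p = 0.0183) and Nfkbia (-0.74 ± 0.20, adjusted p = 0.0317). The same 4 were called lower in Eµ-MTCP1 (9.49% of all genes called), and in Eµ-TCL1 Dusp2 was (9.16%).

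**Figure D5:**
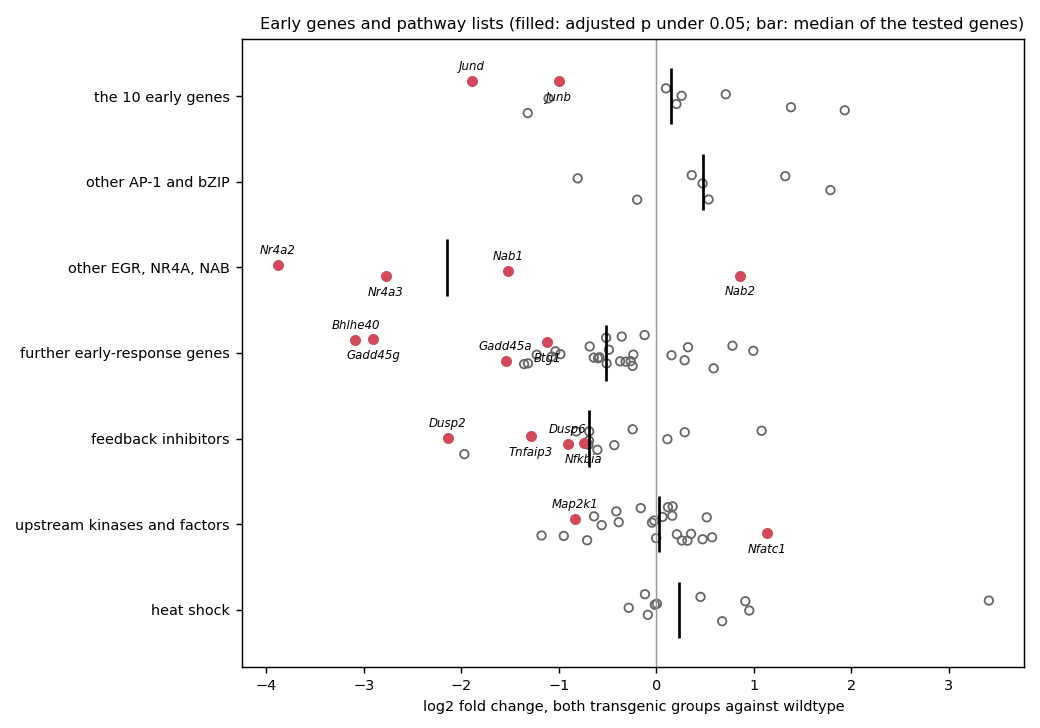
Pooled log2 fold change of every tested gene in the early gene list and in 6 related lists. Red points are called by edgeR at an adjusted p under 0.05 and named, open points are not, and bars are the list medians. The further early-response genes and feedback inhibitors have medians of -0.51 and -0.69, and their called genes all lie below 0.

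Of 24 genes of the kinases and factors that induce the members, 1 was higher and 1 lower in the pooled comparison, with a median log2 fold change of 0.03. This share lies below the 13.1% of all genes called. Nfatc1, a calcium-regulated factor gene, had 375, 299 and 273 CPM in wildtype and 614 to 795 CPM in the transgenic mice, with 1.13 ± 0.19 (SE, edgeR adjusted p = 0.00285). Map2k1, which encodes the ERK kinase MEK1, fell with -0.84 ± 0.19 on the log2 scale (edgeR adjusted p = 0.0163). Srf, which encodes the factor that binds the CArG box, had a pooled value of 0.00 and did not pass the test. Of 10 heat shock genes none was called in the pooled comparison by edgeR, with 2 at an unadjusted p under 0.05 and 2 called by DESeq2, beside 13.1%, 29.1% and 18.9% of all genes. In Eµ-TCL1, Hspa1b (3.85 ± 1.05, adjusted p = 0.0460) and Hspb1 (5.36 ± 1.40, adjusted p = 0.0389) were called higher by edgeR, beside 9.16% of all genes called. Beside Egr1 of 2155, 404 and 1286 CPM in C1594, B4437 and B4376, the heat shock sum was 7822, 7465 and 10804 CPM, and beside 295, 2643 and 348 CPM in Z2641, Z2606 and Z2551 it was 3857, 4833 and 4935 CPM. Most of that sum was Hspa8. In the same order of mice, Hspa1b was 684, 291 and 1445 CPM in Eµ-TCL1 and 3.14, 22.9 and 17.4 CPM in Eµ-MTCP1. Hspb1 was 331, 13.3 and 29.5 CPM in Eµ-TCL1 and 1.16, 21.7 and 1.64 CPM in Eµ-MTCP1. The part of heat shock genes in the Egr1 levels was not tested.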

How the data were processed

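RNA from B cells of 9 spleens, 3 per group, was sequenced as 1 library per mouse. The authors estimated counts per transcript with Salmon (version 1.0.0 per the labels) on 2 references, a standard one of 140748 mouse transcripts and one of 57871 with human MTCP1 and TCL1 sequences added, and deposited these expected counts with TPM, abundances scaled by transcript length and library total. In the second reference 87.3% of transcript lengths are multiples of 3 (35.0% in the standard one), so it mostly holds coding sequence and reads from UTRs are not counted. The authors also deposited whole-number gene counts, the same counts after the CLEAR coverage filter, and a log2 table from DESeq2, of which only the pairing of transcripts of the human genes with names was used here. Columns of the authors' own fold changes and p-values were not used. The submitters' processing notes name CASAVA 1.8.2, HISAT2 2.0.6, featureCounts and build GRCm38.p4. Both an unstranded and a stranded library kit are named, and whether the counting used strand is not given in the sources used here.

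The expected counts on the reference with human sequences were summed per gene with the GRCm38 annotation, rounded and filtered with filterByExpr, which left 11163 genes. At most 0.291% of a library's reads lay on transcripts that matched no gene. CPM are counts scaled to a common library size after TMM normalization. All 9 libraries entered 1 edgeR (4.0.16) quasi-likelihood fit with a coefficient per group, with two-sided tests, and a gene was called where its Benjamini-Hochberg adjusted p over the genes tested lay under 0.05. The code of the fit was run on simulated counts with large known changes in well-counted genes. That run does not test changes of the size seen in most members. Intervals of 95% use the fit's degrees of freedom. The spread of a gene was estimated over all groups, so a mouse also bears on comparisons that leave its group out. DESeq2 1.42.0 was an alternative, beside RLE and library-size scaling, no and stricter filters, length offsets, the standard reference, CLEAR-filtered counts, removal of immunoglobulin genes, fits of the compared groups alone and leaving out each library. Mice are separate by label, so the spread is that between mice.

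The members and the related gene lists were chosen with earlier results of these data known. All 10 members are named. Of each list the called genes are named, up to 4 with the largest change per direction, and other named list genes were chosen after their values were seen.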

Additional observations from a re-analysis of the deposited data

How the results depend on the processing

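No early gene was called in Eµ-MTCP1, but 1 was with RLE scaling, library size alone, DESeq2, no filter, a stricter filter, CLEAR-filtered counts and without immunoglobulin genes (each Junb), and 1 on the standard reference (Egr3). In Eµ-TCL1, 0 became 4 with DESeq2 or with the compared groups alone and 1 (Jund) without a filter or with CLEAR-filtered counts. In the pooled comparison 2 became 4 with DESeq2 and 1 with length offsets, and on the standard reference it stayed at 2 with Egr3 in place of Jund. Further early-response genes numbered 2 in Eµ-MTCP1 with length offsets and 6 in Eµ-TCL1 with the compared groups alone. Leaving out each library gave 0 to 2 members in Eµ-MTCP1, 0 to 4 in Eµ-TCL1 and 0 to 3 pooled, and 1 to 9, 1 to 4 and 3 to 11 further genes, where 4.59 to 8.99%, 4.5 to 10.8% and 6.66 to 14.1% of all genes were called. Under the other settings these shares were 7.19 to 14.8%, 7.36 to 15.2% and 9.79 to 18.9%, highest with DESeq2. The cause was not tested.

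Directions turned for values of Fos, Fosb, Fosl2, Jun, Egr1, Egr2 and Nr4a1. In Eµ-MTCP1, leaving out libraries gave ranges of -1.43 to 0.23 for Fosb (0.04 and 0.06 without wildtype replicate 1 and Eµ-MTCP1 replicate 3), -0.14 to 0.81 for Fosl2 (-0.03 without wildtype replicate 3), -0.49 to 0.33 for Jun (0.08 and 0.02 without wildtype replicates 1 and 2) and -0.27 to 1.56 for Egr2, and Jun was 0.055 with length offsets. In Eµ-TCL1, Fosl2 was -0.067 with library size alone, -0.028 on the standard reference and -0.011 with CLEAR-filtered counts, and ranged from -0.31 to 0.51 (-0.22 without Eµ-TCL1 replicate 3), and Jun from -0.014 (without Eµ-TCL1 replicate 3) to 0.86. Between Eµ-TCL1 and Eµ-MTCP1 the ranges were -0.21 to 0.65 for Fos (-0.14 without Eµ-TCL1 replicate 1), -0.75 to 0.18 for Fosl2, -0.38 to 1.99 for Egr1 (-0.24 and -0.20 without Eµ-MTCP1 replicates 1 and 3) and -0.77 to 0.76 for Nr4a1. Pooled, Fosb was -0.073 with library size alone and -0.54 to 0.34 (-0.13 and -0.09 without wildtype replicate 2 and Eµ-TCL1 replicate 1), Fosl2 -0.17 to 0.65 (-0.05 without Eµ-MTCP1 replicate 2) and Jun -0.014 to 0.42. Of 782 recomputed gene values 707 kept direction and side of the threshold, 14 lost and 31 gained a call, and 30 turned.

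No paired analysis was possible because the labels carry no replicate numbers, which were given in accession order. Fosl2 (2 to 16 reads) and Egr3 (5 to 94 reads) had few reads on the coding reference and 52 to 202 and 37 to 483 on the standard one.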

Other observations

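The libraries with the highest and second-highest Egr1 were led by the same heavy chain variable segment, and the third-highest was not. Ighv12-3 took 98.1% of the Ighv reads in C1594 (Eµ-TCL1, Egr1 2155 CPM) and 95.8% in Z2606 (Eµ-MTCP1, Egr1 2643 CPM). The third-highest, B4376 (1286 CPM), was led by Ighv1-50 with 96.7%. The other 3 transgenic mice, with Egr1 at 295 to 404 CPM, were led by Ighv1-15 (B4437, 84.5%), Ighv5-4 (Z2641, 91.4%) and Ighv1-55 (Z2551, 98.0%), and the leading segment took 5.83 to 14.8% in wildtype. Only leading segments are given here. The paper's own repertoire lists Ighv12-3 second in the Eµ-TCL1 mouse led by Ighv1-15, the segment that led in B4437. These shares were looked at after the Egr1 values were seen, and their relation to Egr1 was not tested.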
